A study of Homo sapiens with 4 samples.

Results

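The genes described are those of the cytosolic ribosomal proteins, in a map of RNA bound by ADAR in K562 cells. They were chosen by name, as RefSeq protein-coding genes whose symbol starts with RPL or RPS and a digit, together with RPLP0, RPLP1, RPLP2 and RPSA, and without the RPS6K kinases. The rule gave 91 of 20056 protein-coding genes. Of these, 43 encode proteins of the large subunit, 31 encode proteins of the small subunit, and 3 encode the acidic stalk proteins. Another 10 are paralogs of these genes, 3 are readthrough genes that join a ribosomal protein gene to its neighbour, and RPS19BP1 encodes a binding partner of a ribosomal protein, not a ribosomal protein itself.

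K562 is an established human leukaemia line with erythroid features, and the cells were not treated. RNA that had been crosslinked to protein by ultraviolet light (254 nm, 400 mJ/cm2) was immunoprecipitated (IP) through ADAR1 in 2 libraries, and 2 input libraries hold RNA from before that selection. The libraries are numbered as replicates 1 and 2. The labels do not tell whether the replicates are separate cultures, and a difference between them may thus be a technical one.

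ADAR converts adenosine to inosine in double-stranded RNA, such as that formed by inverted repeats in introns and untranslated regions. Ribosomal proteins are among the most abundantly expressed products of a dividing cell, and their messenger RNAs begin with a terminal oligopyrimidine (TOP) tract, a C followed by further C and T (U in RNA), through which growth signals control their translation. Many ribosomal protein genes carry small nucleolar RNA (snoRNA) genes in their introns, which guide chemical modification of ribosomal RNA, and the family has left many processed pseudogenes in the genome. Reads from a gene and from its near-identical copies can be confused, and no source used here tells how the authors placed such reads.

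A cluster is an interval of IP reads with the authors' log2 fold of IP over input and the authors' p. It is called enriched here at a log2 fold of at least 3 (IP 8 times input) and a −log10 p of at least 3. A cluster belongs to a gene when its midpoint lies in the gene span, on the gene's strand and outside every snoRNA gene. Exons were not assigned. Each list holds 1 value per cluster from 1 IP and 1 input library, so no test between replicates was made, and clusters that touch are not independent.

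Ribosomal protein genes were widely covered. In replicate 1, 87 of the 91 genes held 1552 clusters, and in replicate 2, 82 genes held 720. The 4 without a cluster were all paralogs: RPL10L and RPL3L, known for expression in testis and muscle, and RPS4Y1 and RPS4Y2. No strand could be set for RPL3L, but neither replicate had a cluster on either strand of its span. These genes are short, with a median span of 5127 bases against 33552 for all protein-coding genes with a cluster. Even so, their median of 16 clusters in replicate 1 and 6 in replicate 2 was close to the 19 and 4 of all such genes.

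Enrichment differed between the replicates. In replicate 1, 35 of 87 genes (40.2%) held an enriched cluster, against 16.6% of all protein-coding genes with a cluster. In replicate 2 it was 25 of 82 (30.5%), against 44.4%. Thus the share stood above the background in replicate 1 and below it in replicate 2. These shares are not matched for input depth, which is treated further below. For genes enriched in each of the replicates the share, 14 of 82 (17.1%), was near the background of 16.7%. The list that combines the replicates, called the reproducible list, named 3 of 87 genes (3.45%), also near the background of 4.06%. A further 21 genes were enriched in replicate 1 only, 11 in replicate 2 only, and 41 with a cluster in neither. Over all protein-coding genes, 2033 were enriched in replicate 1, 4233 in replicate 2 and 1572 in each. There, more genes were thus enriched in replicate 2 only than in replicate 1 only.

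Counted by cluster, the order was the same. Enriched clusters were 71 of 1552 (4.57%) in replicate 1, against 1.36% over protein-coding genes, and 76 of 720 (10.6%) in replicate 2, against 13.1%. Large-subunit genes had 35 of 727 clusters enriched in replicate 1 and 31 of 312 in replicate 2, and small-subunit genes had 26 of 520 and 27 of 248. The stalk genes RPLP0, RPLP1 and RPLP2, whose products recruit elongation factors to the ribosome, had 8 of 54 in replicate 1 and 0 of 15 in replicate 2. The 0 of 15 allows a share of up to 20.0%, a limit taken as 3 over the number counted, for counting error only. The limits of 6.82% and 4.76% below were set in the same way. Such limits, like the intervals below, do not cover differences between cultures.

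**Figure D1:**
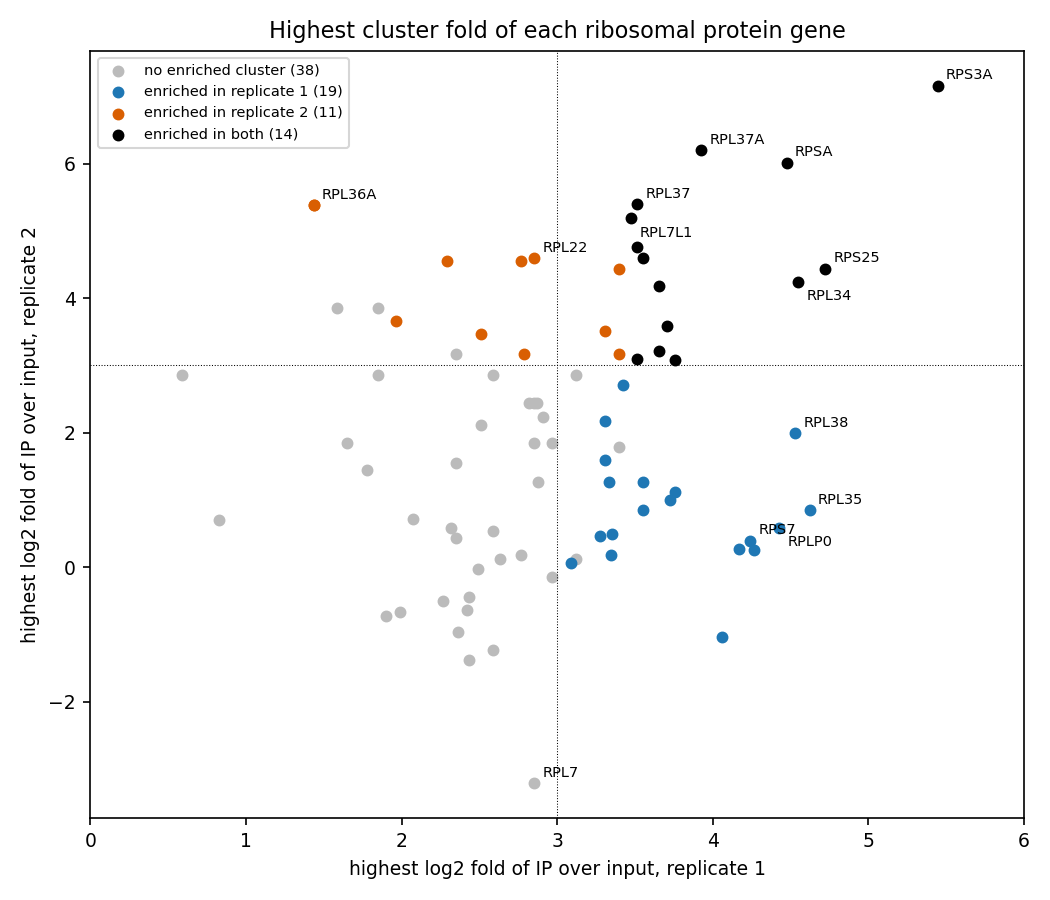
Each point is 1 of the 82 genes with a cluster in both replicates, placed at the highest log2 fold of IP over input among its clusters in replicate 1 (x axis) and in replicate 2 (y axis). Dotted lines mark the fold of 3. The 14 black points are enriched in both, RPS3A stands highest in both at 5.45 and 7.16, and grey points past a line missed the p threshold.

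The strongest signal lay in RPS3A, whose product belongs to the small subunit. On chromosome 4, plus strand, GRCh38, the gene spans 151099628 to 151104642, and its enriched clusters lay between 151103305 and 151103735, beginning 3677 bases after the gene's start. In replicate 1, neighbouring clusters from 151103305 to 151103425 had log2 folds of 4.40, 5.45, 4.68 and 4.43. In replicate 2, the clusters from 151103326 to 151103422 had 6.37 and 7.16, the highest values of any ribosomal protein gene in that replicate. Both replicates thus placed the peak in the same stretch. The recovered reads at the highest clusters were 145 IP over 1 input in replicate 1 (95% Clopper-Pearson interval of the log2 fold 2.94 to 10.76) and 237 over 3 in replicate 2 (5.59 to 9.45).

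A second RPS3A stretch began at 151103606. Replicate 1 had 3.13 there, followed by 2.97, 2.88 and 2.83, just under the threshold. Replicate 2 had 4.41 and 3.44. Outside 151103260 to 151103746, replicate 1 had low values, from −0.25 near the end of RPS3A to 1.59, and replicate 2 had no cluster at all. The reproducible list gave RPS3A 5 peaks, at 3.82, 6.10, 5.89, 5.76 and 3.72. The stretch lay upstream of SNORD73A, a snoRNA gene inside RPS3A, with 198 to 495 bases between that gene and the peaks.

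RPL37A, a zinc-binding protein of the large subunit, showed a similar interior site on the plus strand of chromosome 2. Replicate 1 had 5 enriched clusters between 216501931 and 216502176, with folds of 3.47, 3.21, 3.58, 3.71 and 3.92. Replicate 2 had 6 between 216501912 and 216502105, all higher, from 5.73 to 6.19. The read numbers behind these values were large: 216 IP over 7 input reads at the first replicate 2 cluster (4.73 to 7.13) and 216 over 7 at the replicate 1 cluster with 3.21 (2.15 to 4.54). The same ratio of reads gave different folds because IP depth was 3.33 times input depth in replicate 1 and 0.553 times in replicate 2. Elsewhere in RPL37A, replicate 2 had low values, at −0.63 over the gene start, −1.40 and −1.38 further on, and −0.15 and 1.27 toward the end. The reproducible list gave it 4 peaks, from 4.66 to 4.91.

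RPSA, the small-subunit protein also known as the laminin receptor precursor, had enriched clusters in both replicates but in different places. In replicate 1 they lay at the very start of the gene on chromosome 3, at 39406723 to 39406733 (log2 fold 4.02) and 39406734 to 39406786 (4.48). These rest on 54 and 74 IP reads over 1 input read each, so their intervals were wide, from 1.48 to 9.35 and from 1.95 to 9.80. Replicate 2 had no cluster over that stretch. In replicate 2 the enriched clusters lay inside the gene, 2543 bases after its start, from 39409263 to 39409377, at 4.28, 6.01 and 5.48. Replicate 1 also had clusters there, at 2.98, 2.93 and 2.24, below the threshold. The 2 reproducible peaks of RPSA, at 4.10 and 4.57, lay at this interior site.

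**Figure D2:**
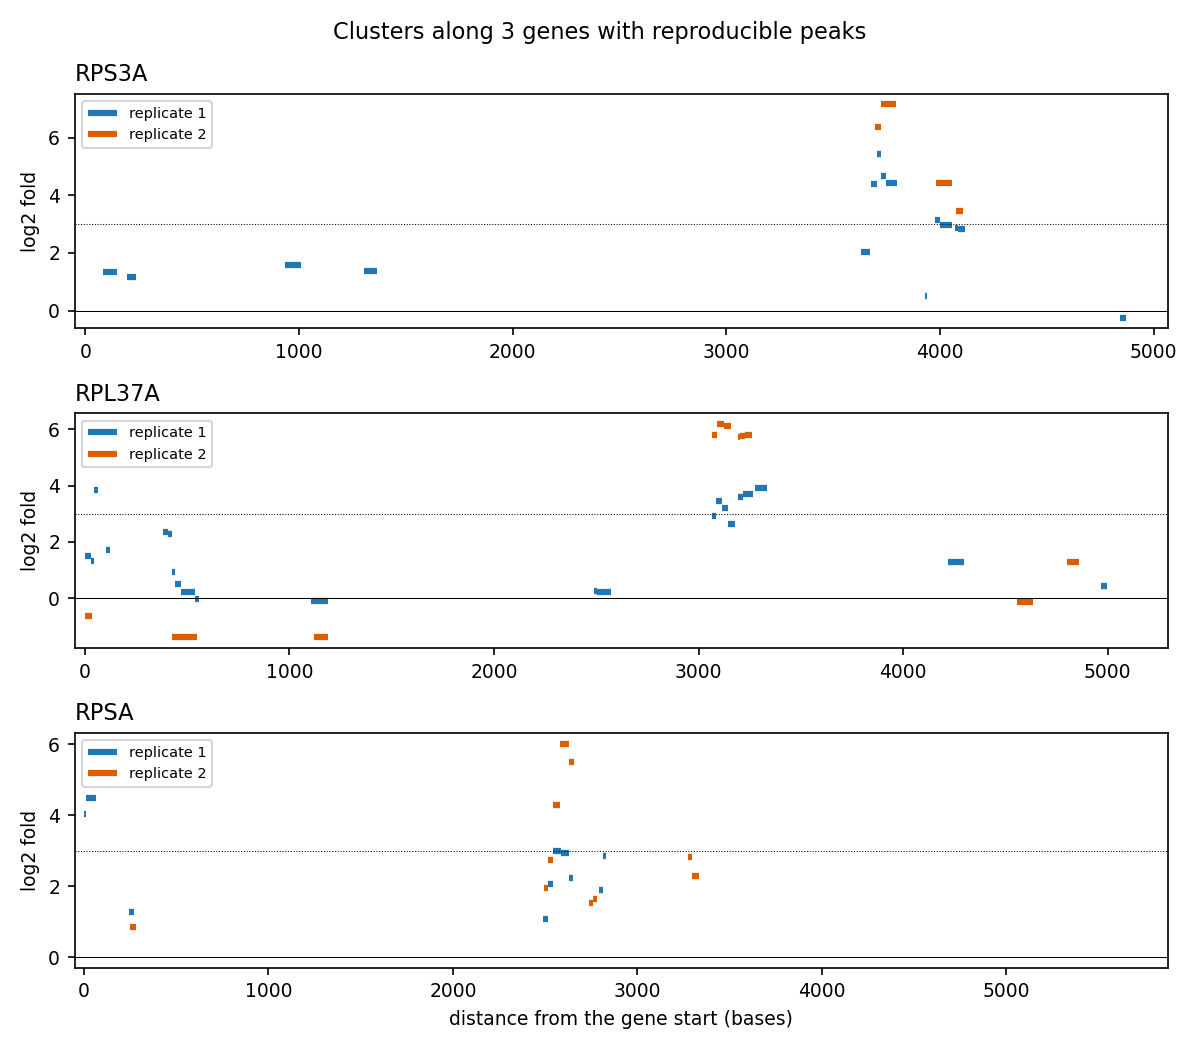
Clusters along RPS3A, RPL37A and RPSA, with the distance from the gene start in bases on the x axis and the log2 fold of IP over input on the y axis; each bar spans 1 cluster (blue replicate 1, orange replicate 2) and the dotted line marks a fold of 3. Both replicates rise at the same interior stretch in each gene, higher in replicate 2, while enriched clusters at the start of RPL37A and RPSA are seen in replicate 1 only.

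The starts of RPSA and RPL4, a large-subunit protein, are shown because, of the 72 members with a RefSeq start window, these had an enriched cluster over the first 30 bases, in replicate 1. The other 19 members have no window here. Among them, RPS2 had an enriched replicate 1 site that begins 23 bases after the start of its gene span. Sequences are from RefSeq, build GRCh38.p14, 5′ to 3′ on the gene's strand, from 5 bases before the annotated start. Capitals mark the bases under an enriched replicate 1 cluster.
RPSA, chr3:39406715-39406744, plus strand: cctgtcttTTCCGTGCTACCTGCAGAGGGG
RPL4, chr15:66504831-66504860, minus strand: gtggtaagcacttccttttCCTGTGGCAGC
The RPL4 cluster went on to 66504725 and had a log2 fold of 3.33, with 67 IP over 2 input reads (1.42 to 6.41).

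The TOP tract was looked for in the RefSeq start windows. The motif searched was a C followed by at least 4 bases that are each C or T, on the gene's strand only, within 20 bases of the annotated start. It was found in 79 of 89 start windows of 72 members (88.8%), against 48.5% of all 35116 RefSeq start windows. Runs of at least 8 such bases were in 70.8% against 14.1%. A match describes the letters only. The starts of 6 genes show it, with the longest run in capitals, in the same frame as above. In RPL38 the longest run lies after the annotated start, and a shorter run at that start is in lower case.
RPS3A, chr4:151099623-151099652, plus strand: ttccgCCCTTTTggctctctgaccagcacc
RPL38, chr17:74203673-74203702, plus strand: tcgttctttttcgtCCTTTTCCCCggttgc
RPL39, chrX:119791606-119791635, minus strand: agCTTCCCTCCTCTTCCTTTCTCCgccatc
RPLP0, chr12:120201087-120201116, minus strand: gaggCCCTTCTCTCgccaggcgtcctcgtg
RPLP2, chr11:809962-809991, plus strand: gCCTTCCTTTTCCTCCCTgtcgccaccgag
RPS16, chr19:39435925-39435954, minus strand: gCTTTCCTTTTCCggttgcggcgccgcgcg
None of these 6 windows held an enriched cluster, since only those of RPSA and RPL4, shown above, did. In RPSA and RPL4 the enriched replicate 1 cluster covered the last bases of the longest run. Clusters over the first 30 bases were common, in 65 of the 89 windows in replicate 1 and 44 in replicate 2, but 2 of the 65 and 0 of the 44 were enriched (a share of up to 6.82% for the 44). Over all protein-coding start windows with such a cluster, 50 of 2112 (2.37%) and 4 of 431 (0.928%) were enriched, so the members' 3.08% and 0 lie near the background.

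Further from the first bases the replicates parted. The gene start is here the outer 5′ end of the RefSeq span, and some members have further annotated starts inside the span. RPL10, for example, also has an annotated start at 154398377. Its enriched replicate 1 clusters from 154398440 to 154398494 count as 393 and 421 bases from the gene start. Leaving out readthrough genes, 25 of 70 enriched replicate 1 clusters (35.7%) lay within 300 bases of the gene start, in 15 genes, against 222 of 1297 clusters that were not enriched (17.1%). In replicate 2, 0 of 63 enriched clusters lay there, which allows a share of up to 4.76%, against 75 of 533 that were not (14.1%). Over all protein-coding genes the shares were 1.95% of enriched and 1.88% of other clusters in replicate 1, and 0.164% and 1.52% in replicate 2. Those genes are longer, so the levels of these shares are not comparable, and enriched clusters are set against the others of the same genes. Within 150 bases of the start, the replicate 1 shares were 12.9% of enriched and 12.6% of other clusters, so the difference lay beyond that distance. At the other end of the gene, 1 of 70 (1.43%) and 0 of 63 enriched clusters lay within 300 bases, against 6.78% and 5.63% of the clusters that were not enriched.

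By distance, the share of replicate 1 clusters that were enriched was 5.44% in the first 100 bases, 13.5% from 100 to 200 and 20.8% from 200 to 300, and 4.96% from 300 to 600 bases. Replicate 2 had 0 enriched of 56, 10, 9, 41 and 30 clusters in successive bins up to 1000 bases, then 11.6% from 1000 to 2000 bases and 17.4% from 2000 to 4000. Its bins at 100 to 300 bases hold few clusters, and a share of up to 30.8% or 33.6% cannot be told from 0 there.

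**Figure D3:**
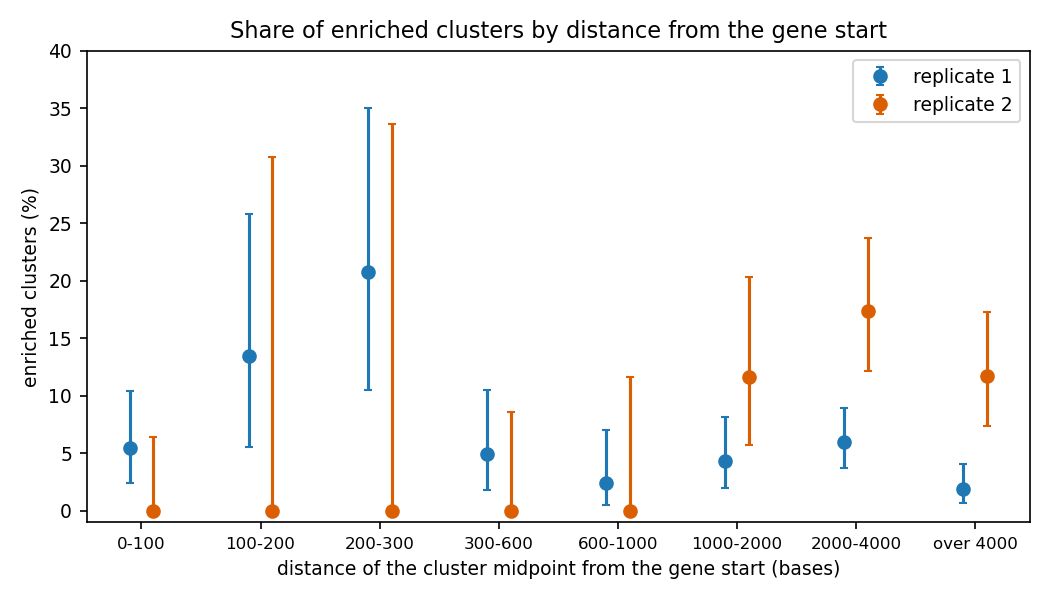
Share of clusters that are enriched (y axis, %) by distance of the cluster midpoint from the gene start in bases (x axis), for ribosomal protein genes without readthrough genes; points are shares and bars are 95% Clopper-Pearson intervals, which treat clusters as independent. Replicate 1 is highest at 200 to 300 bases, with 20.8%, and replicate 2 has no enriched cluster before 1000 bases.

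RPL38, which is needed for the translation of particular Hox messenger RNAs in the embryo, had the longest stretch of enriched clusters that began near a start. Its 5 enriched replicate 1 clusters ran from 74203790 to 74204086 on chromosome 17, from 112 bases after the start, with folds of 4.42, 4.18, 4.36, 3.53 and 4.53. Each had 2 input reads and 77 to 154 IP reads. In replicate 2, all 3 clusters in the first 300 bases were below input, from −1.37 to −0.83. RPLP0 had 3 enriched clusters from 33 bases after its start, at 3.37, 3.07 and 3.12, and another pair from 1811 bases after the start, at 4.43 and 3.17. Its highest replicate 2 fold was 0.59. RPLP2 had 4.06 (222 IP over 4 input reads, 2.68 to 5.95) and 3.40 near the start, with replicate 2 at or below −1.04 along the whole gene.

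Other members with such a start stretch included RPS2, with 4.17 on 180 IP and 3 input reads, RPS16 with 4.27, and RPS7, whose product binds MDM2, with 4.24. RPL8, RPS12, RPS13, RPL27, RPL37 and RPL37A also had it, and RPL4 and RPSA are given above. In 10 of the 15 genes replicate 2 had clusters within 300 bases of the start. Those 19 clusters had a median log2 fold of −0.83 and ranged from −1.65 to 1.01, so none came near the replicate 1 values, and 15 were below 0. Clusters within 300 bases were present in replicate 1 in 60 further members without an enriched one.

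Sites along the whole gene were counted after joining enriched clusters at most 50 bases apart and leaving out readthrough genes. There were 49 sites in replicate 1 and 39 in replicate 2, and 8 overlapped between them. They lay in RPS3A, which held 2, and in RPL37A, RPL34, RPL39, RPS15A, RPS25 and RPS9. Of the enriched replicate 1 clusters, 17 of 71 (23.9%) were overlapped by an enriched replicate 2 cluster, against 43.2% over protein-coding genes. In the other direction it was 18 of 76 (23.7%), against 13.8%.

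RPS15A, a small-subunit protein, had a shared site on chromosome 16 from 18784266 to 18784342, with folds of 3.55 in each of 2 replicate 1 clusters and 4.59 in replicate 2. RPS9, another small-subunit protein, had 3.66 in replicate 1 and 4.18, 3.76 and 3.18 in replicate 2, from 5030 bases after its start. RPL39, one of the smallest ribosomal proteins, had 3.76 in each of 2 replicate 1 clusters and 3.08 in replicate 2. These calls rest on few input reads: 1 for RPS9 and RPL39 in replicate 1, and 2 or 3 in the highest replicate 2 clusters of the 3 genes.

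RPS25, which is dispensable for most translation but needed at some viral entry sites, shared a site on chromosome 11 near 119016688, at 3.10 in replicate 1 and 4.44 in replicate 2. Its highest replicate 1 value, 4.73, lay elsewhere, at 119015778 to 119015817, where the gene CENATAC overlaps on the other strand. RPL34 shared a site at 3.15 in replicate 1 and 3.47 in replicate 2. Its highest replicate 1 cluster, at 4.55 with 156 IP over 2 input reads (2.67 to 7.61), had no enriched replicate 2 cluster over it, and its highest replicate 2 cluster, at 4.25, had no enriched replicate 1 cluster over it. RPL37, RPL7L1, RPS10 and RPS13 were among the members enriched in both without a shared site, as was RPSA.

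RPL7L1, a paralog of RPL7 that acts in ribosome assembly, was the only paralog with an enriched cluster. Replicate 2 had 4.87, 5.19 and 4.85 in neighbouring clusters from 1961 bases after its start, with up to 101 IP over 5 input reads (3.92 to 6.84). Replicate 1 had 3.48, on 37 IP reads over 1 input read (0.91 to 8.82). RPL37 had 5.40 in replicate 2 (70 IP over 3 input reads, 3.79 to 7.71), at 40831138 to 40831191 on chromosome 5, and 3.51 and 3.15 in replicate 1 nearer the start.

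Some members were enriched in replicate 2 only. RPL22, which also binds viral and cellular structured RNA and is a tumour suppressor in T cells, had 7 enriched clusters among 26. The highest lay in a site that begins 7242 bases after its start, at 4.59 with 80 IP over 6 input reads (3.41 to 6.08), and the highest replicate 1 fold anywhere in RPL22 was 2.85. RPL24, a large-subunit protein, had 4 of 8, up to 4.55, in a span that another annotated protein-coding gene overlaps on the other strand. RPL36A had 5.38 on 23 IP reads over 1 input read (2.76 to 10.74), against a highest value of 1.44 in replicate 1. RPS19, whose loss causes Diamond-Blackfan anaemia, had 4 of 22, all at or below 3.18. In contrast, RPL35 reached 4.62 in replicate 1 on 82 IP reads over 1 input read (2.10 to 9.94) and 0.85 in replicate 2. RPL10, which joins the large subunit late in its assembly, had 3.35 and 3.31 in replicate 1, on the enriched clusters with the most reads of that replicate, with 305 IP over 9 and 428 over 13 input reads (2.40 to 4.49 and 2.52 to 4.23). Its highest replicate 2 fold was 0.18.

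The 5 members with the most clusters and no enriched one were RPL14, RPL5, RPS18, RPL31 and RPS29. RPL5, which with RPL11 binds MDM2 when ribosome assembly fails, had 27 clusters in replicate 1 from −1.99 to 1.78 and 14 in replicate 2 from −2.01 to 1.44, with medians of 0.05 and −1.31. RPS29 reached 3.18 in replicate 2 without passing the p threshold. Of the readthrough genes, RPS10-NUDT3 had 14 enriched replicate 2 clusters among 145, of which 13 lay in the span of NUDT3 and not of RPS10. The enriched cluster of RPL36A-HNRNPH2 was that of RPL36A, RPL17-C18orf32 held none, and RPS19BP1 held none among 5 clusters in replicate 1.

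The bulk of clusters stood apart from the enriched ones. The median log2 fold over member clusters was 0.73 in replicate 1, against 0.07 over protein-coding genes. In replicate 2 it was 0.38 against 1.85, and 41.5% of member clusters lay below input against 9.36%. A negative median was found in 41 of the 82 members with a cluster in replicate 2 and in 7 of the 87 in replicate 1. The same count over all protein-coding genes was not made, so whether it is particular to the members cannot be told. RPL7, a large-subunit protein, was the lowest in replicate 2, with 3 clusters from −3.22 to −3.20, whereas in replicate 1 it ranged from −0.69 to 2.85. The highest replicate 2 medians were those of RPL37A, 5.73, and RPS3A, 5.39, which had 1.49 and 2.83 in replicate 1.

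**Figure D4:**
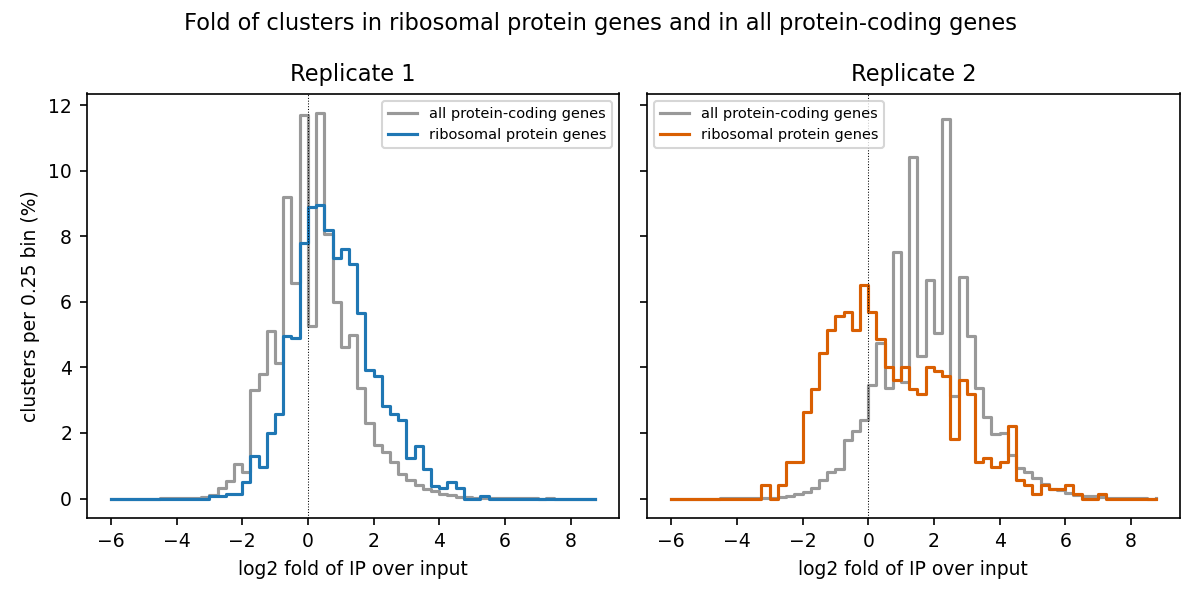
Share of clusters (y axis, %, per bin of 0.25) by log2 fold of IP over input (x axis), for ribosomal protein genes (coloured) and for all protein-coding genes (grey), in replicate 1 (left) and replicate 2 (right). Ribosomal protein genes lie to the right of the grey line in replicate 1, with medians of 0.73 and 0.07, and to the left in replicate 2, with 0.38 and 1.85.

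Input depth moved with these values. Each log2 fold is a ratio of whole read numbers scaled by a fixed depth term. The denominator of that ratio in lowest terms is the input read number or a divisor of it, and gives a measure of depth. It is also the divisor of the fold itself. In replicate 2, a ratio with a denominator of 1 cannot have a log2 fold below 0.85. Such ratios were 106 of the 720 member clusters, against 57686 of 136670, so the shares below input are not set apart from depth. In replicate 1, members were above all protein-coding genes in each class of denominator, from 1.44 against 0.27 at a denominator of 1 to −0.27 against −0.58 at 50 or more. In replicate 2 the order was mixed: 2.85 against 2.44 at 1, 0.66 against 0.66 at 5 to 9, and −1.37 against −1.13 at 50 or more. In replicate 2, a denominator of at least 20 was found in 118 and 72 of the 720 member clusters (20 to 49, and 50 or more), against 2586 and 655 of 136670. Members thus held more deep clusters, where folds were low. The enriched share in replicate 2 was higher in members than over all protein-coding genes at low denominators. It was 23.6% against 17.5% at 1, 23.8% against 13.4% at 2 to 4, and 10.1% against 6.89% at 5 to 9. At 10 to 19 it was lower, 0.813% against 2.95%. The lower share of members over all replicate 2 clusters was thus not seen in each class. With a denominator of 20 or more, 0 member clusters were enriched in either replicate. Such calls were rare over all protein-coding genes too, at 0.544% for 20 to 49 and 0.819% for 50 or more in replicate 1, and 1.35% and 2.90% in replicate 2.

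**Figure D5:**
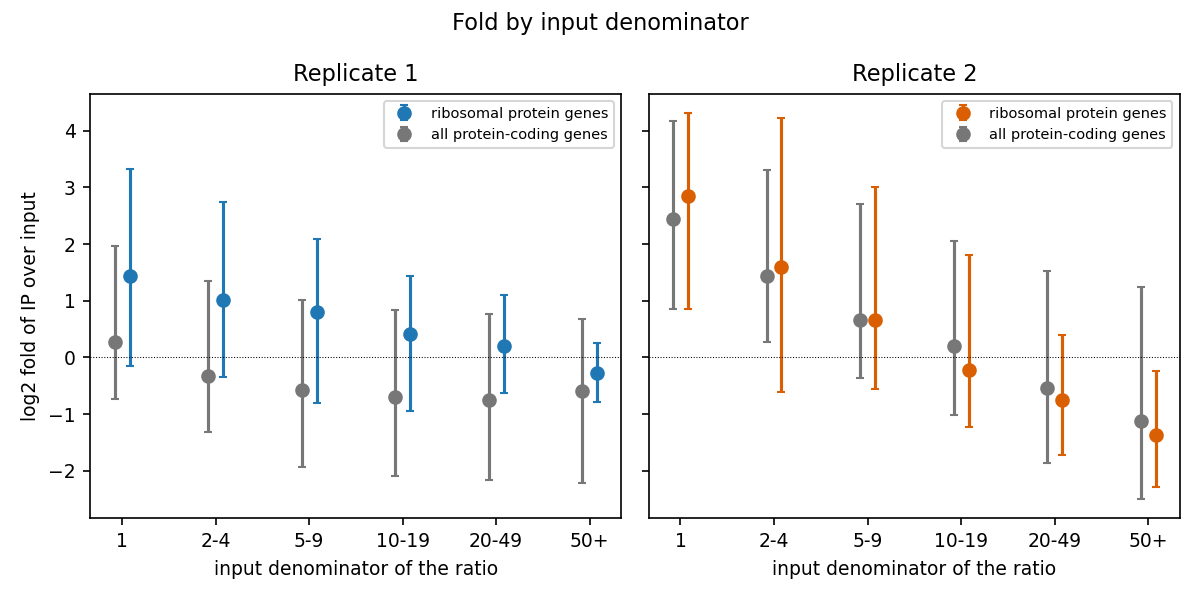
Median log2 fold of IP over input (y axis) by the input denominator of the ratio in lowest terms (x axis), for clusters in ribosomal protein genes (coloured) and in all protein-coding genes (grey); bars run from the 10th to the 90th percentile of clusters. Replicate 1 (left) has ribosomal protein genes above the others in all 6 classes, and in replicate 2 (right) the medians fall from 2.85 to −1.37 in ribosomal protein genes.

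Enriched calls rested on few input reads. The 71 enriched replicate 1 clusters had a median of 88 IP and 2 input reads, and 16 had 1 input read. In replicate 2, reads were recovered for 73 of 76, with a median of 29 IP and 4 input reads.

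Clusters of the replicates were also paired by best mutual overlap, which gave 470 pairs in 74 members. Across pairs, which share libraries and touch each other, Pearson's r was 0.50 and Spearman's rho 0.41. The median difference, replicate 2 minus replicate 1, was −0.75, and replicate 2 was higher in 170 pairs. Among the 178 pairs with a denominator of at least 10 in both replicates, r was 0.23, rho 0.31 and the median difference −1.31, and replicate 2 was higher in 19. Pairs enriched in replicate 2 numbered 51, and their median log2 fold was 4.18 in replicate 2 and 2.24 in replicate 1, where 50 of the 51 were above 0. The 15 pairs enriched in replicate 1 had medians of 3.51 and 4.44. However, 47 of the 71 enriched replicate 1 clusters had no replicate 2 cluster over them at all, against 13 of the 76 in the other direction. The same shares over all protein-coding genes were not computed, so whether these counts are particular to the members cannot be told. The whole lists also differ in size, with 534161 clusters in replicate 1 and 155848 in replicate 2. Pairs enriched in neither had medians of 0.35 and −0.37.

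The snoRNA genes inside members were left out of all counts above. There were 60 in 30 members. The 165 replicate 1 clusters inside them had a median log2 fold of −1.41, and the 87 of replicate 2 had −2.23, both below the rest of the genes. Outside the snoRNA spans, host genes had 30 of 446 clusters enriched in replicate 1 (6.73%), against 41 of 1106 (3.71%) in the other members. In replicate 2 the shares were 12.3% and 10.1%. RPS3A and RPSA are hosts. In hosts, 2 of the 30 enriched replicate 1 clusters (6.67%) lay within 100 bases of a snoRNA gene, against 15.4% of the clusters that were not enriched. In replicate 2 these shares were 5.00% of 20 and 4.20%.

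Other genes of translation were described by lists of general knowledge. Other TOP transcripts, mostly of translation factors but with some other proteins and the noncoding snoRNA hosts GAS5 and SNHG1 among them, had an enriched cluster in 10 of 29 genes in replicate 1 and 12 of 27 in replicate 2. Their clusters were enriched in 3.74% and 8.55% of cases. EEF1A1, the main elongation factor, had 8 enriched of 36 clusters in replicate 1 and 0 of 17 in replicate 2, and EIF4B, a helicase cofactor, had 2 of 76 and 10 of 42. Ribosome biogenesis factors had 6 of 29 and 10 of 26 genes, with 3.79% and 18.6% of clusters. BOP1, a factor of large-subunit maturation, gave 26 of their 41 enriched clusters in replicate 1, and without it the share was 1.46%. MDN1, the AAA ATPase of large-subunit maturation, had 24 enriched clusters in replicate 2 and 3 reproducible peaks. Mitochondrial ribosomal proteins, which form the ribosome of the organelle, had 8 of 77 genes and 1.29% of clusters in replicate 1, and 22 of 56 genes and 14.7% in replicate 2. Their medians were 0.00 and 1.75, near those of all protein-coding genes. Each of these 3 lists had 1 gene with a reproducible peak. The labels' protocols also describe HepG2 cells. A gene without a strand could not be assigned a cluster. Of 6 hepatocyte markers the strand could be set for 3 only, and these had no cluster. Of 6 erythroid markers 4 had clusters, TFRC and GATA1 among them. No strand could be set for HBA1 and HBA2, so their clusters were not counted.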

How the data were processed

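The authors deposited a cluster list for each replicate and a list that combines them, 3 in all. Tools named in the submitters' processing notes are cutadapt 1.9 and STAR 2.4.0i. The peak caller and the build used for the lists are not given in the sources used here, and the coordinates fit GRCh38. The deposited log2 fold is IP over input per cluster, and the deposited −log10 p is the authors', limited to 400. How the replicates were combined is not given either.

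Clusters were assigned to RefSeq GRCh38.p14 gene spans by midpoint with Python 3.11.15, pandas 2.3.3 and SciPy 1.17.1. Gene strand came from RefSeq start windows for 72 members, and otherwise from at least 5 clusters with at least 80% on 1 strand. Library totals are not stated. Reads per cluster were recovered from the fold steps (tolerance 1e-10, commonest fold taken as 3 IP over 1 input read) and the authors' p (within 0.02), and the scripts were tested on simulated data. Fold intervals are 95% Clopper-Pearson and cover counting error only.

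Genes are named by a rule: those with a reproducible peak, in each replicate the 8 with the most enriched clusters and the 5 with the highest enriched fold, those enriched in both, the 5 with the most clusters and none enriched, and readthrough or non-ribosomal members. RPS2, RPS7, RPS16, RPS19, RPL4, RPL7, RPL27, RPLP1, RPLP2, EEF1A1, EIF4B, BOP1, MDN1 and TFRC were named after their values were seen. Members and lists were chosen with earlier results of these data known. Alternatives were log2 fold 2 and 4, a −log10 p of 5, any overlap with the gene span, snoRNA spans kept, readthrough genes left out, other distances, a denominator of 1 left out and each replicate alone. Some members that the rule covers are not reported by name here.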

Additional observations from a re-analysis of the deposited data

Results flagged for a closer look

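Clusters inside snoRNA genes were outside the counts, and 2 of them were enriched over input in replicate 1. One lay in SNORA62 inside RPSA, on chromosome 3 at 39411161 to 39411212, with a log2 fold of 3.40. The other lay at the end of SNORD101 inside RPS12, on chromosome 6 at 132815378 to 132815379, with 3.04, next to the enriched RPS12 cluster that begins at 132815380. In replicate 2, 0 of 87 such clusters were enriched, and the highest had 0.23.

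On the strand opposite to a member, 1 cluster was enriched in replicate 2. It lay in the span of the readthrough gene RPL36A-HNRNPH2 on chromosome X at 101404808 to 101404879, minus strand, with a log2 fold of 3.66. GLA, the alpha-galactosidase gene, covers the same position.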

How the results depend on the processing

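Counts moved with the thresholds, and the cause was not tested. At a log2 fold of 2, replicate 1 had 60 members and 167 enriched clusters, replicate 2 had 121 clusters, and 22 members were enriched in both. At 4 these were 12 and 19 in replicate 1, 16 and 44 in replicate 2, and 4 in both. Leaving out denominators of 1 gave 18 members and 31 clusters in replicate 1 and 6 members in both, and requiring at least 10, chosen after seeing the data, gave 1 and 1 in replicate 1, 1 and 1 in replicate 2, and 0 in both. With a single replicate, 25 to 35 members counted as enriched. The median fold of 0.73 in replicate 1 became 0.59 with snoRNA spans kept, 0.51 without denominators of 1 and 0.20 with at least 10. That of replicate 2, 0.38, became 0.12, 0.053 and −0.68, and 0.074 without readthrough genes and RPS19BP1. The replicate 1 share near the start, 35.7%, was 52.6% at a fold of 4, 12.9% within 150 bases and 0 with denominators of at least 10, where 1 enriched cluster is left. The replicate 2 share was 0 under every alternative run. Of 78 alternative values, 49 stayed within the main value's range and 29 moved. No test over samples, paired or not, was made, because each list gives 1 fold per cluster. The pairing of clusters between the replicates is a description only.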
